A study of Mus musculus with 56 samples.

Results

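The genes examined here are 8 genes of NAD metabolism in the mouse heart, namely Nampt, Nmnat1, Nmnat3, Nmrk1, Sirt1, Sirt3, Parp1 and Nnt. They were chosen by symbol from the 22864 genes listed for heart, and all 8 were found. The hearts came from C57BL/6J mice, an inbred strain. All were adult females of 9 weeks, with no genetic change or drug in any group. All mice lived under 12 h light and 12 h dark and were fed for 7 days in 1 phase alone. Daytime-restricted feeding (DRF) gave food in the light, and nighttime-restricted feeding (NRF), the reference, gave it in the dark. Hearts were taken every 4 h over the day, from ZT0 through to ZT24, where ZT (zeitgeber time) counts the hours since the light came on. PolyA RNA-seq gave 4 libraries in each of the 14 groups of regimen and ZT, 56 in all. The labels do not say whether replicates were separate animals, so p-values measure the spread between these samples.

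NAD+ carries electrons in energy metabolism and is also consumed as a substrate. Cells rebuild it mainly by salvage, in which NAMPT converts nicotinamide to nicotinamide mononucleotide, NMRK1 makes the same mononucleotide from nicotinamide riboside, and the NMNAT enzymes complete the dinucleotide. Sirtuin deacetylases and PARP1 split NAD+ and release nicotinamide again, while NNT in the inner mitochondrial membrane passes electrons between NADH and NADPH. Nampt is a known output of the circadian clock, since CLOCK and BMAL1 act on it through E-boxes (CACGTG), and SIRT1 and PARP1 in turn act on clock proteins.

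In GENCODE M21 (GRCm38) Nampt spans chr12:32819545-32853349 on the plus strand, Nmnat1 chr4:149467572-149485202 on the minus strand and Nmnat3 chr9:98287435-98420438 on the plus strand. Nmrk1 spans chr19:18631950-18652428 on the plus strand, Sirt1 chr10:63319005-63381704 on the minus strand and Sirt3 chr7:140863666-140882309 on the minus strand. Parp1 spans chr1:180568924-180601254 on the plus strand and Nnt chr13:119335448-119408997 on the minus strand. The library kit does not mark strand, so reads in the 342 exonic bases that Sirt3 shares with Psmd13, the 418 it shares with Ric8a and the 65 that Sirt1 shares with the antisense gene Gm16145 cannot be assigned to 1 gene.

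The promoters of Nampt, Sirt1 and Parp1 are shown because the peaks of Nampt and Sirt1 came later under DRF while that of Parp1 was not called different. Each runs from 250 bases before to 50 after the RefSeq start (GRCm38.p6), 5' to 3' on the strand of the gene, with the E-box CACGTG in capitals. The windows are chr12:32820085-32820384 (plus), chr10:63338986-63339285 (minus) and chr1:180568641-180568940 (plus).
Nampt: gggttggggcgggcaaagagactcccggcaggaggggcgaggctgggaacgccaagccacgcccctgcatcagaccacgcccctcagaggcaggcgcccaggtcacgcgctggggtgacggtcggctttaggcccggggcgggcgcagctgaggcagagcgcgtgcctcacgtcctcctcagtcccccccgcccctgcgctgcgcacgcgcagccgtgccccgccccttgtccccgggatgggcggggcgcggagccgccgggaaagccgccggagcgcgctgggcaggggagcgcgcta
Sirt1: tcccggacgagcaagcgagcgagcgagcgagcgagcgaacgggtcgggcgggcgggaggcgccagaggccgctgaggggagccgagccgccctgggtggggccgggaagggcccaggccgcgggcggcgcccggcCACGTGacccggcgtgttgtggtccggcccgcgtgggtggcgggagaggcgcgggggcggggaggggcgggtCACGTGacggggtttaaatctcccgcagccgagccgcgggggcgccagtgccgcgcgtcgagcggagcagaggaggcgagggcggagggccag
Parp1: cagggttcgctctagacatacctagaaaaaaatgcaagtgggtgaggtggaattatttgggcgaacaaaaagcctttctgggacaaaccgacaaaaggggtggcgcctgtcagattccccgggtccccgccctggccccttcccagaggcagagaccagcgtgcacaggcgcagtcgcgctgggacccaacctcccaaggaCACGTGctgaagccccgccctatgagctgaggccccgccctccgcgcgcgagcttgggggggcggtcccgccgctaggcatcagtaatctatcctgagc
CACGTG, which reads the same on both strands, stood at -115 and -43 from the start in Sirt1 and at -49 in Parp1. It was absent from these windows of Nampt, Nmnat1, Nmnat3, Nmrk1 and Sirt3, and 7.15% of the 32851 promoters of this length held it. The RefSeq starts of Nampt, Sirt1 and Nmnat3, among others, lie inside the longer GENCODE genes. These matches describe letters and not binding, and none in a window says nothing about E-boxes elsewhere in a gene.

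Values are TPM recomputed from recovered reads, a share of all transcripts in the library that is corrected for gene length and so allows genes to be ranked. Averaged over the 56 libraries, Nampt stood highest at 88.7 ± 18.8 TPM, followed by Parp1 at 25.7 ± 2.39, Nmnat1 at 14.6 ± 1.31 and Sirt3 at 12.0 ± 1.04 (SD, n = 56). Nmnat3 followed at 8.11 ± 1.07, Sirt1 at 6.68 ± 0.872, Nmrk1 at 3.22 ± 0.474 and Nnt at 0.552 ± 0.152 TPM (SD, n = 56). In this order each gene exceeded the next in all 56 libraries except for 2 pairs. Nmnat1 exceeded Sirt3 in 55 of 56, and Nmnat3 exceeded Sirt1 in 43 of 56, so that the levels of Nmnat3 and Sirt1 overlapped widely. The read depth behind them ran from 4458 to 13812 reads per library for Nampt down to 115 to 257 for Nmrk1 and 33 to 110 for Nnt. The length of Nmrk1 was inferred from the read steps as 3345 bases against 3689 annotated.

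The 56 libraries held 29.3 to 53.0 M recovered reads. As a check of tissue, the 6 cardiomyocyte markers (such as Myh6 and Tnnt2) summed to 27035 to 40483 TPM, and those of skeletal muscle, with 3 of 5 listed, to at most 5.27 TPM. The 5 erythroid markers ranged from 1683 to 67337 TPM and the 5 atrial markers from 95.0 to 5486 TPM, with atrial medians of 1803 under DRF and 609 under NRF. Endothelial medians were 521 and 586 TPM, fibroblast 591 and 637, macrophage 265 and 335, mural 644 and 723 and adipocyte 491 and 534 (DRF, then NRF). Of the 5 genes in each list, 4 endothelial, 2 fibroblast, 4 macrophage, 4 mural and 0 adipocyte markers were called for mean level, as were 2 of 6 cardiomyocyte, 1 of 5 atrial and 0 of 5 erythroid markers. Of all genes tested, 2.87% were called higher in mean level under DRF and 26.1% lower, shares that moved with the scaling, as given below. The part of cell composition in the results below was not tested, and in bulk tissue fewer cells of a type and less RNA per cell cannot be told apart.

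To ask which of these genes keep a daily rhythm under inverted feeding, a 24-h cosine curve was fitted within each regimen. Nnt averaged under 1 TPM and was not tested, which left 7 members. Under NRF 5 of 7 passed (adjusted p under 0.05), against 37.2% of the 13893 genes tested. Under DRF 4 of 7 passed, against 32.2%. Nampt, Sirt1, Nmnat3 and Parp1 were rhythmic in both, as were 17.5% of genes tested. Hereafter such genes are named dual-oscillating. Nmnat1 passed under NRF alone, and Sirt3 and Nmrk1 passed in neither.

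**Figure D1:**
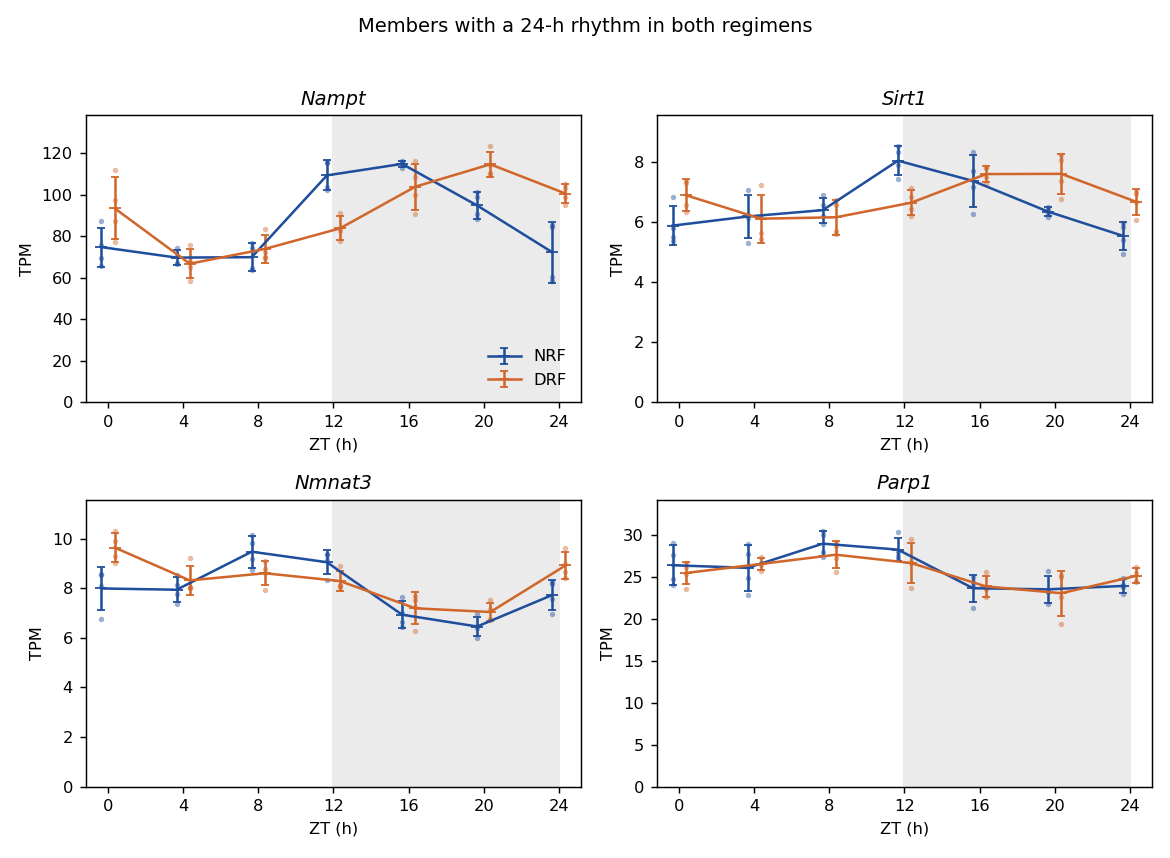
TPM (y axis) by ZT (x axis, h) for the 4 dual-oscillating genes under NRF (blue) and DRF (orange), with each library as a point and the mean ± SD of 4 libraries as a line with bars. The dark phase is shaded. Nampt and Sirt1 were highest at ZT12 to ZT16 under NRF and at ZT16 to ZT20 under DRF, Nmnat3 was highest at ZT8 under NRF and at ZT0 under DRF, and the curves of Parp1 ran together.

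Nampt, which encodes the rate-limiting enzyme of salvage, kept a strong rhythm in both regimens but reached its peak later under DRF. At ZT4 the 4 libraries read 66.3, 66.9, 70.9 and 74.4 TPM under NRF and 58.4, 64.9, 68.0 and 75.5 under DRF. At ZT8 they read 63.5, 64.8, 74.4 and 76.8 under NRF and 69.3, 70.1, 72.3 and 83.6 under DRF. The regimens overlapped at both of these times, which were the lowest of the day or close to it. At ZT12 the values were 102, 104, 115 and 116 TPM under NRF and 77.5, 82.3, 83.9 and 91.3 under DRF. Every NRF library thus stood above every DRF library at the onset of darkness. At ZT16 the values were 113, 114, 116 and 116 TPM under NRF and 90.6, 99.7, 109 and 116 under DRF. At ZT20 they were 88.2, 90.6, 98.8 and 101.3 under NRF and 110.1, 110.5, 114 and 123 under DRF. At ZT24 they were 58.5, 60.5, 84.4 and 85.4 under NRF and 94.9, 98.6, 103 and 105 under DRF. The order had turned over by ZT20, and at ZT20 and ZT24 every DRF library stood above every NRF library. At ZT0, taken from other libraries at the same clock hour, NRF read 65.8, 69.6, 76.0 and 87.4 TPM and DRF 77.0, 87.2, 97.4 and 112, which overlapped.

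The fitted peak of Nampt was at ZT15.6 ± 0.386 under NRF and at ZT18.8 ± 0.384 under DRF (SE), a delay of 3.24 h (95% interval 2.15 to 4.33 h). The amplitude on the log2(TPM + 1) scale was 0.41 ± 0.04 under NRF and 0.37 ± 0.04 under DRF (SE), a peak-to-trough fold of 1.77 and 1.68. The adjusted p for rhythm was 1.25e-07 under NRF and 8.85e-07 under DRF. The difference in rhythm between the regimens had an adjusted p of 5.03e-05, and 27.5% of genes tested were called for such a difference. The interval of the amplitude ratio, DRF over NRF, was 0.666 to 1.24, which includes no change and a moderately lower or higher amplitude.

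Sirt1, a nuclear NAD-dependent deacetylase, moved the same way as Nampt on a smaller scale. At ZT12 its libraries read 7.44, 7.90, 8.32 and 8.53 TPM under NRF and 6.19, 6.43, 6.84 and 7.13 under DRF. At ZT20 they read 6.17, 6.31, 6.39 and 6.51 under NRF and 6.76, 7.37, 8.07 and 8.23 under DRF. At ZT24 they read 4.95, 5.39, 5.85 and 5.96 under NRF and 6.06, 6.67, 6.92 and 7.04 under DRF. As for Nampt, every DRF library was below every NRF library at ZT12 and above them at ZT20 and ZT24. At ZT0 the values were 5.38, 5.51, 5.81 and 6.83 TPM under NRF and 6.33, 6.58, 7.31 and 7.38 under DRF. At ZT16 they were 6.28, 7.17, 7.69 and 8.34 under NRF and 7.27, 7.51, 7.80 and 7.82 under DRF. The regimens overlapped at ZT0, ZT4, ZT8 and ZT16, and at ZT4 and ZT8 the group means lay between 6.11 and 6.40 TPM.

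The peak of Sirt1 was at ZT13.2 ± 0.665 under NRF and at ZT18.1 ± 0.632 under DRF (SE), a delay of 4.89 h (95% interval 3.05 to 6.73 h). Its amplitudes were 0.19 ± 0.03 and 0.16 ± 0.03 on the log2(TPM + 1) scale (SE). Adjusted p was 6.41e-05 for the rhythm under NRF, 7.55e-04 under DRF and 2.50e-04 for the difference in rhythm. Relative to Nampt, Sirt1 peaked at -2.38 ± 0.633 h under NRF and at -0.730 ± 0.524 h under DRF (SE). The delay of Sirt1 exceeded that of Nampt by 1.65 h, with a 95% interval from -0.00118 to 3.30 h, so a difference between their delays was not resolved.

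Nmnat3, the mitochondrial NMNAT, moved in the opposite direction. Its libraries at ZT0 read 6.76, 8.07, 8.54 and 8.58 TPM under NRF and 9.03, 9.28, 9.91 and 10.3 under DRF. At ZT8 they read 8.73, 9.16, 9.84 and 10.1 under NRF and 7.93, 8.63, 8.75 and 9.09 under DRF. At ZT20, the low point of both regimens, they read 6.00, 6.38, 6.49 and 6.96 under NRF and 6.72, 6.75, 7.16 and 7.52 under DRF. The DRF libraries stood above all NRF libraries at ZT0 and ZT24 and overlapped with them at the other 5 times. The peak was at ZT7.69 ± 0.568 under NRF and at ZT4.13 ± 0.861 under DRF (SE), an advance with a shift of -3.55 h (95% interval -5.62 to -1.48 h, adjusted p for the difference in rhythm 0.00960). This call was lost without replicate number 2 (adjusted p = 0.0732) or 4 (0.0667), and without ZT8 (0.0590) or ZT12 (0.0549), while the shift remained negative. Its rhythm under DRF (adjusted p = 0.00738) was lost without replicate number 1 (0.0799) or 4 (0.0522) or without ZT16 (0.115). At ZT4, close to the fitted DRF peak, the DRF mean of Nmnat3 was 8.31 TPM. This was below 9.64 at ZT0, 8.91 at ZT24 and 8.60 at ZT8, so the fitted peak did not fall on the highest group means.

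Parp1, which adds ADP-ribose chains to proteins at DNA breaks, was dual-oscillating with no called difference. At ZT8 its libraries read 27.4, 28, 29.95 and 30.5 TPM under NRF and 25.6, 27.3, 28.7 and 29.1 under DRF. At ZT20 they read 21.8, 23.2, 23.4 and 25.7 under NRF and 19.4, 22.6, 24.96 and 25.3 under DRF. The regimens overlapped at all 7 times. The peak was at ZT8.03 ± 0.775 under NRF and at ZT7.07 ± 0.769 under DRF (SE), a shift of -0.957 h with a 95% interval of -3.15 to 1.24 h (adjusted p = 0.697). The amplitudes were 0.14 ± 0.03 and 0.12 ± 0.03 on the log2(TPM + 1) scale (SE). Adjusted p for the rhythm was 0.00217 under NRF and 0.00400 under DRF. The DRF call was lost with the deposited values (0.0663).

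With the class limits of the study, which call a shift of 0 to 4 h phase locked and 8 to 12 h phase inverted, Nampt, Nmnat3 and Parp1 were phase locked, Sirt1 fell between the classes, and 0 of the 4 was phase inverted. These classes go by the fitted shift, and the 95% intervals of Nampt, Nmnat3 and Sirt1 each reach across the 4 h limit. Of the 2434 dual-oscillating genes, 52.2% were phase locked and 17.7% phase inverted. The direction set Nampt and Sirt1 apart from most of them, as 34.5% peaked later under DRF and the median shift was -1.80 h. Being dual-oscillating with a called difference and a later peak applied to 3.36% of genes tested, and with an earlier peak, as for Nmnat3, to 6.76%.

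To compare Nampt with the core clock, Per2, Dbp, Nr1d1 and Arntl (which encodes BMAL1), all core clock genes or direct outputs, were fitted in the same way. Their peaks were earlier under DRF, with shifts of -1.50, -2.14, -0.777 and -1.71 h in this order, and all 95% intervals lay below 0. In some libraries clock genes stood apart from their group, as Dbp did in DRF ZT4 replicate 1 (119 TPM, with the others at 17.7 to 37.7), in NRF ZT8 replicate 1 (20.1, with the others at 117 to 158) and in DRF ZT16 replicate 1 (55.8, with the others at 10.6 to 16.4). Ucp3, a gene of fatty acid use, also stood apart in DRF ZT4 replicate 1 (99.7 TPM, with the others at 8.63 to 18.3). In NRF ZT8 replicate 1 it read 25.8 TPM, with the others at 59.7 to 103. For Dbp, each of these libraries lay in the range of the other's group. Whether their labels were exchanged was not tested, and both were kept in the reported fits. Without the 3 libraries in which Dbp stood apart, the clock gene shifts were -1.38, -1.92, -0.766 and -1.2 h, with 95% intervals still below 0. The shift of Nampt was then 3.33 h (2.16 to 4.51 h). Of the 16 core clock genes listed, 14 were dual-oscillating, and all 14 peaked earlier under DRF, by shifts of -0.777 to -3.54 h, and so did 14 of 14 without the 3 libraries. The shift of each comparator minus that of Nampt was -4.74 h for Per2 (95% interval -6.04 to -3.43 h), -5.38 h for Dbp (-6.89 to -3.87 h), -4.02 h for Nr1d1 (-5.27 to -2.76 h) and -4.95 h for Arntl (-6.37 to -3.52 h). Relative to Nampt, Per2 peaked at -0.781 ± 0.409 h under NRF and at -5.52 ± 0.503 h under DRF (SE). The same difference was -6.79 h for Nmnat3 (-9.31 to -4.27 h) and -4.20 h for Parp1 (-6.73 to -1.66 h).

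**Figure D2:**
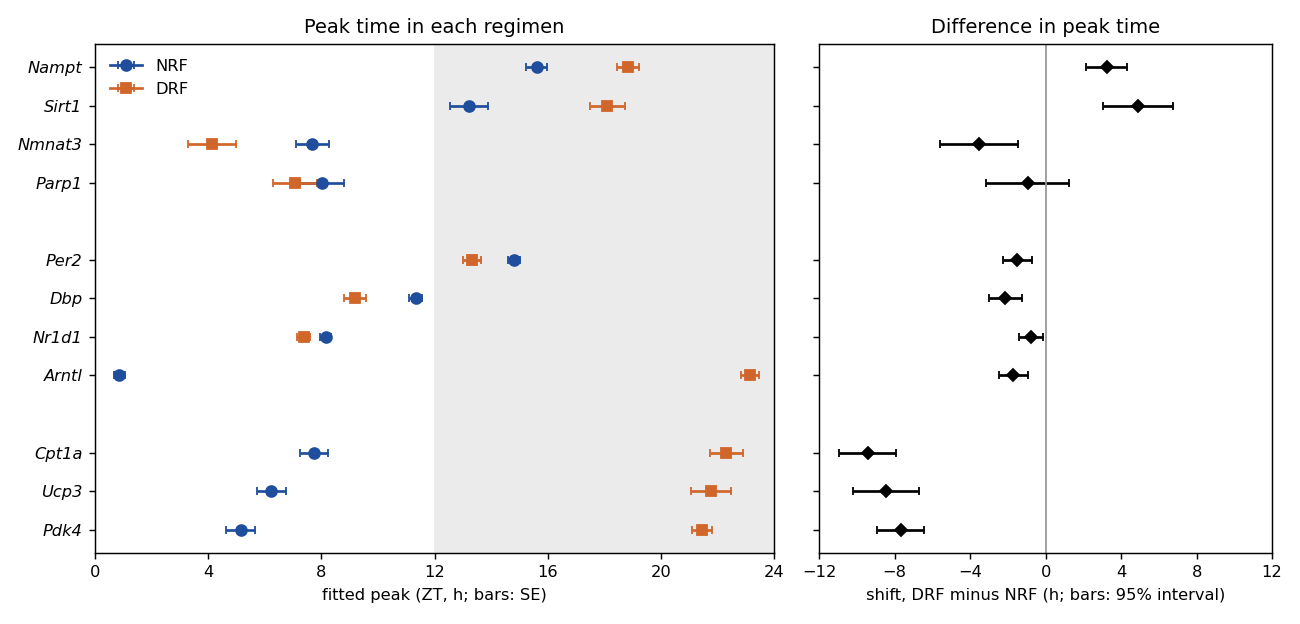
Left, fitted peak time (x axis, ZT in h) of the 4 dual-oscillating members, 4 clock genes and 3 feeding-responsive genes (y axis) under NRF (circles) and DRF (squares), with SE bars and the dark phase shaded. Right, peak time under DRF minus NRF (h) with 95% intervals. Nampt and Sirt1 lie to the right of 0, while the clock genes lie slightly and the feeding-responsive genes far to the left.

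The amplitude of the clock comparators was lower under DRF, which was not resolved for Nampt. The ratio of amplitudes, DRF over NRF, was 0.590 for Arntl (95% interval 0.492 to 0.706), 0.693 for Dbp (0.554 to 0.867), 0.743 for Nr1d1 (0.622 to 0.887) and 0.646 for Per2 (0.538 to 0.776). That of Nampt was 0.908, and its interval overlapped with all of these.

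Genes that respond to feeding moved further. Cpt1a, Ucp3 and Pdk4, genes of fatty acid use that rise in fasting, shifted by -9.43 ± 0.750, -8.47 ± 0.877 and -7.69 ± 0.614 h (SE). Without the 3 libraries named above for Dbp, these shifts were -9.93, -9.29 and -8.08 h. Counted from the start of food access, Nampt peaked at 3.60 h under NRF and at 18.8 h under DRF. When the curves were aligned to food access, 5 of 7 members differed between regimens (Nampt, Sirt1, Nmnat1, Nmnat3 and Parp1), against 41.3% of genes tested. Adjusted p in this alignment was 6.56e-13 for Nampt, 1.64e-06 for Sirt1, 3.98e-06 for Nmnat3, 3.55e-06 for Parp1 and 0.00106 for Nmnat1. The peak of Nampt under DRF therefore matched neither its hour under NRF nor the same hour of feeding.

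**Figure D3:**
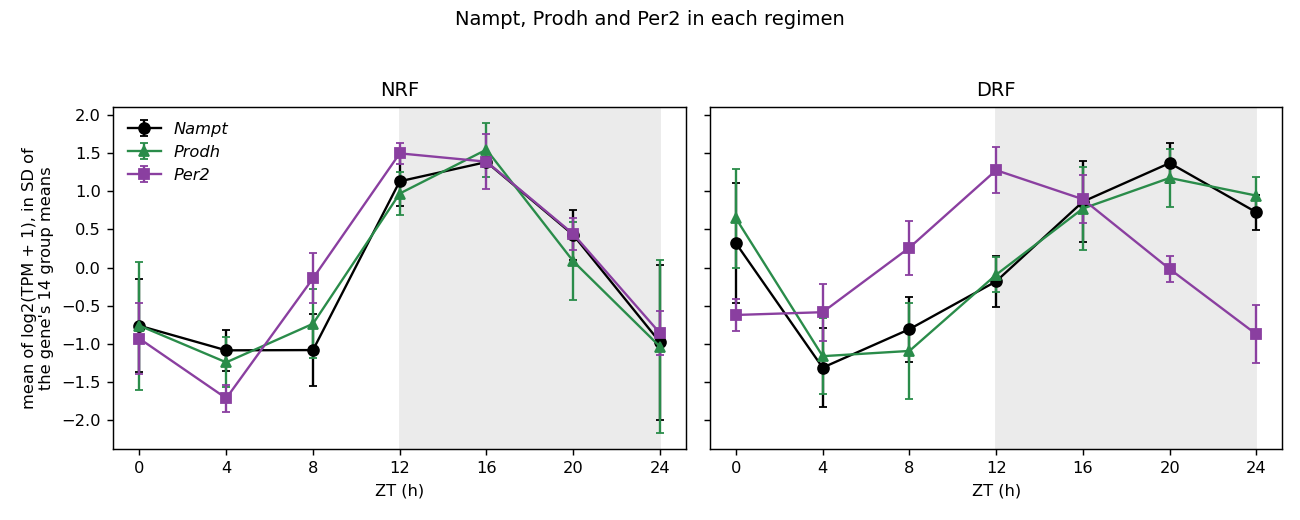
Mean log2(TPM + 1) at each ZT (x axis, h), centred on the gene's mean over the 14 groups and divided by the SD of the 14 group means (y axis), for Nampt, Prodh and Per2. Bars are the SD of 4 libraries on that scale, and the dark phase is shaded. All 3 curves are highest at ZT12 to ZT16 under NRF, while under DRF Per2 is highest at ZT12 and Nampt and Prodh at ZT20.

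At single times, Nampt was called at ZT0, ZT12 and ZT24, with DRF minus NRF differences of 0.31, -0.38 and 0.49 on the log2(TPM + 1) scale (SE 0.10 each). In TPM, the means were 93.4 ± 15.0 (DRF) and 74.7 ± 9.43 (NRF) at ZT0, 83.7 ± 5.70 and 109 ± 7.21 at ZT12, and 100.5 ± 4.64 and 72.2 ± 14.7 at ZT24 (SD, n = 4 each). Adjusted p was 0.0343 at ZT0, 0.0151 at ZT12 and 0.00125 at ZT24, and at ZT20 it was 0.0581 with a difference of 0.27. Sirt1 was called at ZT12 (-0.24, adjusted p = 0.0440) and ZT20 (0.23, adjusted p = 0.0430), each with an SE of 0.08, and Nmnat3 at ZT0 (0.25 with an SE of 0.07, adjusted p = 0.0101). In members called of 7 tested, this amounts to 2 at ZT0 (11.5% of all genes tested), 2 at ZT12 (7.64%), 1 at ZT20 (14.8%) and 1 at ZT24 (8.83%). With limma, 0 members were called at ZT4 (0.446%), ZT8 (0.353%) or ZT16 (6.87%), where 0 had an unadjusted p under 0.05 either. The shares at these times depended on the 3 libraries named above for Dbp. Without them, the calls over all genes rose from 62 to 473 at ZT4, from 49 to 504 at ZT8 and from 955 to 1478 at ZT16, still with 0 members called.

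Several of these single-time calls lay near the threshold and were lost when 1 library was left out. The ZT0 call of Nampt, with differences of 0.22 to 0.29, was lost without DRF ZT0 replicate 1 (adjusted p = 0.211) or 2 (0.0893), or without NRF ZT0 replicate 2 (0.0842) or 3 (0.153), and its ZT12 call without NRF ZT12 replicate 3 (0.0644) and after the median-of-ratios rescaling (0.0677). Leaving out replicate number 3 from every group ended its ZT24 call (0.0920). The ZT12 call of Sirt1 was lost without any of 6 of the 8 ZT12 libraries (adjusted p 0.0675 to 0.162, differences of -0.21 to -0.26) and its ZT20 call without any of 7 of the 8 ZT20 libraries (0.0625 to 0.112, differences of 0.19 to 0.24). The ZT0 call of Nmnat3 was lost without NRF ZT0 replicate 2 (0.0751). The rhythm differences of Nampt and Sirt1 were kept under all 75 alternatives, with delays of 2.79 to 4.26 h and of 4.17 to 6.10 h.

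**Figure D4:**
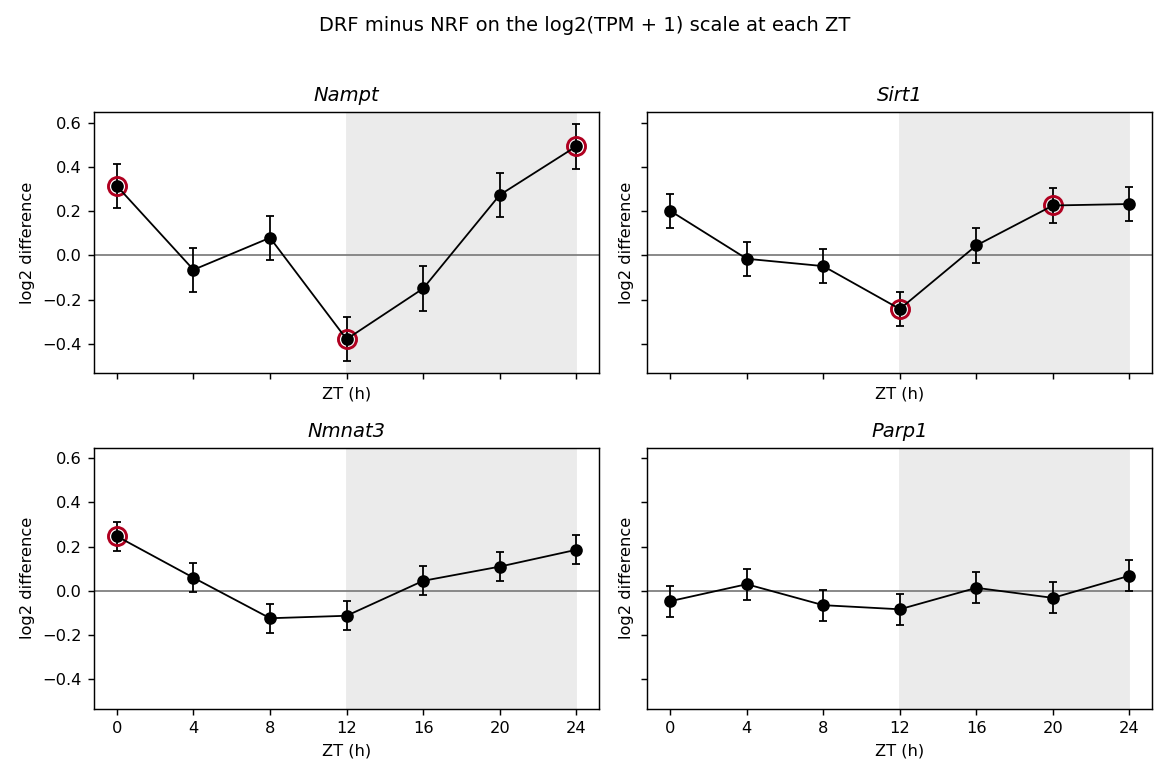
DRF minus NRF difference on the log2(TPM + 1) scale (y axis) at each ZT (x axis, h) for the 4 dual-oscillating genes, with SE bars, the dark phase shaded and red rings where adjusted p was under 0.05. Nampt and Sirt1 dip at ZT12 and stand above 0 from ZT20 to ZT24, while Parp1 stays close to 0.

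Nmnat1, the nuclear NMNAT, was highest around lights on under NRF, and this rhythm was not called under DRF. At ZT0 its libraries read 14.3, 15.9, 17.3 and 18.6 TPM under NRF and 14.6, 14.6, 15.5 and 15.9 under DRF. At ZT12 they read 12.8, 12.8, 13.3 and 14.4 under NRF and 12.1, 14.1, 14.5 and 14.7 under DRF. At ZT20 they read 14.5, 15.3, 15.6 and 15.7 under NRF and 12.4, 13.2, 13.7 and 13.96 under DRF, the only time at which the regimens did not overlap. The amplitude was 0.12 ± 0.02 under NRF and 0.05 ± 0.03 under DRF on the log2(TPM + 1) scale (SE), with adjusted p of 0.00227 and 0.353. The difference in rhythm itself was not called (adjusted p = 0.233), so a loss of the rhythm under DRF was not shown. After the median-of-ratios rescaling it was called (0.0415), with a fitted shift of -2.71 h in place of 1.4 h, and the NRF call was lost without ZT12 (0.0763).

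Sirt3, the main mitochondrial deacetylase, ranged from 9.94 to 13.9 TPM under NRF and from 10.3 to 14.3 under DRF, with a median of 11.9 and 12.1. Its adjusted p for rhythm was 0.0778 under NRF and 0.732 under DRF, and that for the difference 0.139. The NRF call was gained after rescaling by the median of ratios (0.00801), with limma-voom (0.00515) and with the deposited values (0.0317), and without replicate number 4 (0.0328), ZT8 (0.0485), or NRF ZT8 replicate 1 (0.0375) or 4 (0.0470). Without the 3 libraries named above for Dbp, the difference in rhythm was also called (0.0473). Nmrk1 ranged from 2.46 to 4.30 TPM under NRF and from 2.17 to 4.22 under DRF, with an adjusted p for rhythm of 0.224 and 0.266. Its median SD within a group was 14.8% of the mean, against 7.91% for Nampt, at a median of 183 reads per library. Nnt, which carries a deletion of several exons in C57BL/6J mice, ranged from 0.300 to 0.734 TPM under NRF and from 0.358 to 1.07 under DRF. Its means were 0.494 ± 0.137 and 0.610 ± 0.147 TPM (SD, n = 28 each), from a median of 56 and 68 reads per library. Without the filter on low genes, its mean level differed by 0.11 ± 0.03 on the log2(TPM + 1) scale (SE, adjusted p = 0.0160).

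**Figure D5:**
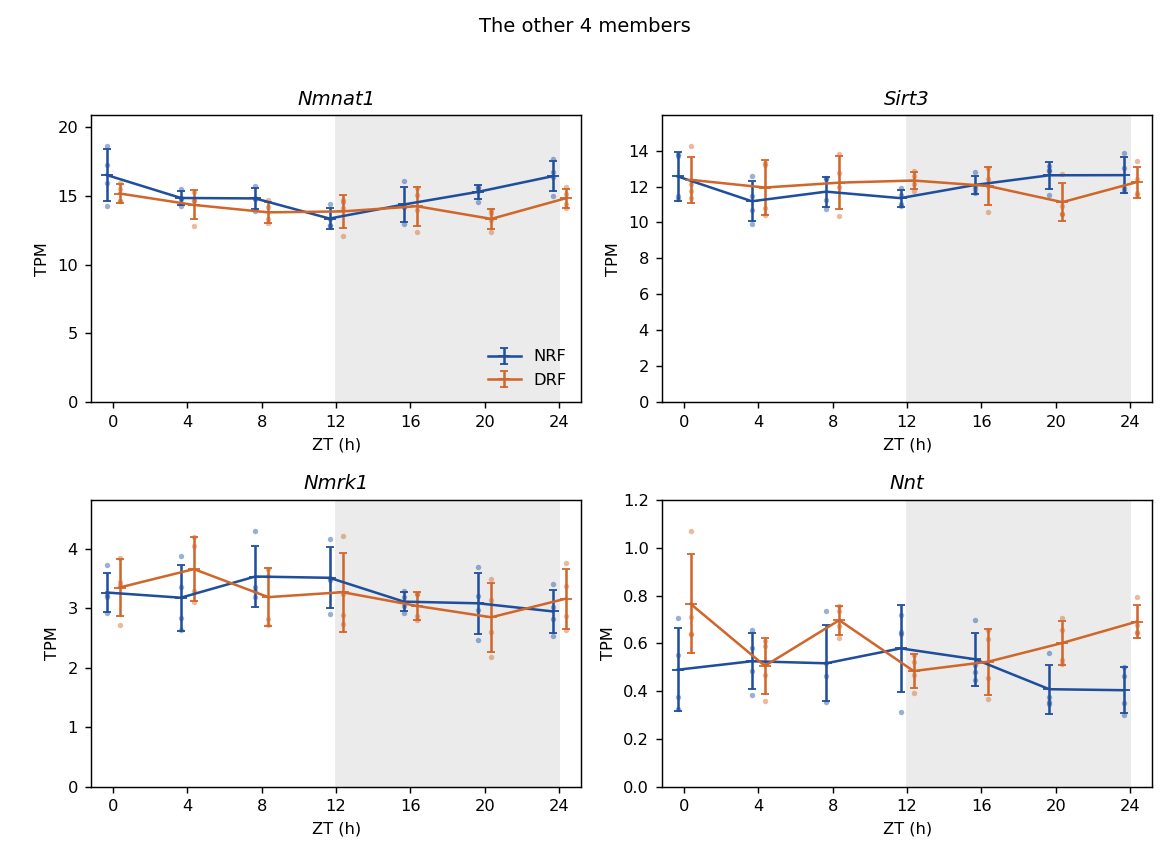
TPM (y axis) by ZT (x axis, h) for Nmnat1, Sirt3, Nmrk1 and Nnt under NRF (blue) and DRF (orange), with libraries as points and the mean ± SD of 4 libraries as lines with bars. The dark phase is shaded. The regimens overlap at nearly all times, with Nmnat1 lower under DRF at ZT20 and Nnt higher under DRF at ZT24.

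Averaged over the 7 times, the members differed little in level between regimens. ZT0 and ZT24 are the same clock hour and both entered this mean in each scaling, so that hour carried more weight. At ZT0 and ZT24 the log2 differences were 0.31 and 0.49 for Nampt, 0.20 and 0.23 for Sirt1 and 0.25 and 0.19 for Nmnat3. Nmnat1 was called lower under DRF by -0.08 ± 0.03 on the log2(TPM + 1) scale (SE, adjusted p = 0.0201), with 14.2 ± 1.04 TPM against 15.1 ± 1.41 in the reference (SD, n = 28 each). It was 1 of 7 members called, all told 0 higher and 1 lower, where 2.87% of genes tested were called higher and 26.1% lower. The differences of Nampt (0.08 ± 0.04, adjusted p = 0.105), Sirt1 (0.06 ± 0.03, 0.143) and Nmnat3 (0.06 ± 0.02, 0.0723) were not called. Without ZT0 or without ZT24 the call of Nmnat1 was lost (adjusted p = 0.0515 and 0.0773). These calls depended on the scaling, since the median difference over all genes was -0.05 with the sum of TPM held equal and 0.00343 after rescaling by the median of ratios. After that rescaling Nmnat1 was no longer called (-0.02, adjusted p = 0.536), and Nampt (0.14, 0.0158), Sirt1 (0.11, 0.00800) and Nmnat3 (0.11, 0.00159) were called higher, a split of 3 higher and 0 lower. Over all genes tested 9.66% were then higher and 10.9% lower, and the share of calls that were higher went from 9.93% to 47.0%, with the lower calls falling from 3621 to 1514.

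To compare the members with Nampt directly, the log2 ratio to Nampt in the same library was tested for any regimen difference over the 7 times. Of 6 members, 5 were called (adjusted p 2.37e-04 for Parp1, 0.00547 for Nmrk1 and 0.00550 for Nmnat3, with Nmnat1 and Sirt3 smaller), against 84.1% of genes tested, so this count is no result about the members. Without replicate number 3 it fell to 3, as Nmnat3 (0.143) and Nmrk1 (0.0841) were lost, while the calls over all genes fell from 11680 to 8250. Sirt1 was the exception at an adjusted p of 0.0736. It was called, at 0.0232 to 0.0485, without any of DRF ZT0 replicate 4, NRF ZT0 replicate 1, NRF ZT4 replicate 4, NRF ZT8 replicate 3 and NRF ZT24 replicates 1 and 2. The correlation with Nampt across the 14 group means (Pearson's r, a description, since the groups share the daily cycle) was 0.863 for Sirt1, -0.334 for Nmnat3, -0.458 for Nmnat1 and -0.508 for Parp1. Among the clock comparators it was 0.589 for Per2, 0.013 for Dbp, -0.341 for Arntl and -0.500 for Nr1d1.

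By the same measure, the genes outside the list most like Nampt were Prodh (r = 0.976), Fkbp5 (0.947), Ubr2 (0.943), Mknk2 (0.936) and Plin4 (0.934). Prodh encodes proline dehydrogenase, Fkbp5 a co-chaperone of the glucocorticoid receptor, Ubr2 a ubiquitin ligase, Mknk2 a kinase of the translation factor eIF4E and Plin4 a lipid droplet protein. Under NRF they peaked between ZT14.9 and ZT15.7 and under DRF between ZT17.5 and ZT19.9. Their shifts were 4.10 h for Prodh, 1.85 h for Fkbp5, 3.45 h for Ubr2, 2.76 h for Mknk2 and 4.82 h for Plin4. With Spearman's correlation over the 56 libraries, 4 of the 5 remained among the 5 most alike, and Cobll1 took the place of Fkbp5. Most like Sirt1 were Foxo3, a forkhead factor active in fasting (0.935), and Herpud1, of protein disposal at the endoplasmic reticulum (0.932), with delays of 5.13 and 2.95 h. Most like Nmnat3 were Hlcs (0.949) and Ctu2 (0.944), most like Parp1 Pusl1 (0.957) and Copb2 (0.947) and most like Nmnat1 Gm1943 (0.926) and Cerk (0.898). Those most like Nmrk1 were Zfp28 (0.925) and Klc4 (0.912), and like Sirt3 Guk1 (0.884) and Kbtbd3 (0.864). For several of these the likeness did not extend to the single libraries, as Spearman's correlation over the 56 was 0.315 for Kbtbd3, 0.435 for Zfp28 and 0.498 for Gm1943, at rank 2245, 1219 and 479 among the genes compared.

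The other genes of the pathway were taken from 6 lists of 55 genes, of which 44 were tested. In these 44, a rhythm was called for 13 under NRF and for 16 under DRF, and 12 had a called difference in rhythm, where 37.2%, 32.2% and 27.5% of all genes tested did. In mean level 2 were called higher and 14 lower under DRF, where 2.87% of all genes tested were higher and 26.1% lower. After the median-of-ratios rescaling these were 8 and 9, where 9.66% and 10.9% of all genes were.

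In salvage, 0 of 4 tested genes differed in rhythm with limma, and Nmrk2, a muscle paralog of Nmrk1, was called higher in level under DRF (13.1 ± 4.07 against 10.6 ± 2.56 TPM, SD, n = 28 each, adjusted p = 0.00438). Of the pathway from tryptophan, 1 of 9 genes was tested (Afmid), and it was not called for rhythm in either regimen. Among the other 5 sirtuins, Sirt7 (adjusted p = 0.0417) and Sirt5 (0.0435, and 0.0736 after the median-of-ratios rescaling) differed in rhythm, where 27.5% of all genes did. After that rescaling 1 of the 5 was called. Sirt6, a nuclear sirtuin, was lower under DRF (5.11 ± 0.712 against 5.80 ± 0.707 TPM, SD, n = 28 each, adjusted p = 4.28e-04). Sirt7 was not called rhythmic in either regimen, and Sirt5 under DRF alone.

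Of 18 other NAD consumers tested, 4 differed in rhythm (27.5% of all genes did), namely Parp4 (shift -7.49 h, adjusted p = 3.21e-04), Tnks (0.0165), Parp2 (0.0219) and Parp6 (0.0291). In level 0 were higher and 9 lower under DRF, beside 26.1% lower over all genes. After the median-of-ratios rescaling 1 was higher and 6 lower, beside 10.9% lower over all genes. The smallest adjusted p were those of Parp9 (10.3 ± 1.39 against 11.8 ± 1.18 TPM, SD, n = 28 each, adjusted p = 3.20e-04) and Parp14 (9.99e-04), both interferon-responsive members of the PARP family. They were lower under both scalings.

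Of 7 genes for nicotinamide clearance, NAD phosphorylation, transport and hydrolysis, 5 differed in rhythm (27.5% of all genes did). Aox1, an oxidase that clears nicotinamide metabolites, peaked at ZT13.8 ± 0.509 under NRF and at ZT22.4 ± 0.653 under DRF (SE), a shift of 8.67 h (adjusted p = 2.97e-09). Nadk2, the mitochondrial NAD kinase, moved from ZT9.35 ± 0.740 to ZT1.09 ± 0.730 (SE), a shift of -8.25 h (1.18e-06), and was higher in level under DRF (35.0 ± 4.33 against 31.2 ± 2.93 TPM, SD, n = 28 each, adjusted p = 7.46e-05). Slc25a51, the mitochondrial NAD+ carrier, shifted by -11.5 h (1.72e-04), and Nadk, the cytosolic NAD kinase, by -11.0 h (0.0264), although Nadk was not called rhythmic in either regimen alone. The rhythm of Slc25a51 under NRF lay near the threshold (adjusted p = 0.0455). Nnmt, which methylates nicotinamide, was lower in level under DRF (6.45 ± 1.85 against 7.69 ± 1.49 TPM, SD, n = 28 each, adjusted p = 0.00301).

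Of 9 mitochondrial redox partners of Nnt, 1 differed in rhythm (27.5% of all genes did), namely Glud1 (adjusted p = 0.0485, and 0.104 after the median-of-ratios rescaling). Idh2, which makes mitochondrial NADPH, was the 1 called lower in level (0.0280, and 0.743 after that rescaling), where 26.1% of all genes were.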

How the data were processed

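RNA of 56 heart samples was sequenced by the authors as polyA libraries, and their processing notes name HISAT2 2.0.5, featureCounts 1.5.0-p3 and mm10. The deposited values are named TPM, but tested against exon lengths they followed a log2 of 1 plus a multiple of the reads, divided by exon length, with constants of their own in each library. Whole reads were recovered from this relation for 22861 of 22864 genes, with 99.9996% of 1192403 values within 0.1 of a whole number. For 831 genes, Nmrk1 among them, the length was searched from the values because the annotated one (GENCODE M21) gave no whole reads. Whether a read stands for a fragment is not given in the sources used here. Libraries held 29.3 to 53.0 M reads. No molecular identifiers were used.

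TPM was recomputed from these reads and log2(TPM + 1) was analysed with limma 3.58.1 in R 4.3.3 for the 13893 genes whose average reached 1 TPM. P-values were adjusted over all of them by Benjamini-Hochberg (threshold 0.05). The design had foreseen linear TPM values, and this recalculation as the alternative for other values. Rhythm was tested with cosine and sine terms of 24 h within a regimen, its difference with their interaction with regimen over all 56 libraries, and single times and mean levels as contrasts of 14 group means. Intervals are 95%. The code was tested on simulated data. Samples were grouped by the labels. Members, comparators and gene lists were chosen with earlier results of these data known. Named genes were all members, the fixed clock and feeding comparators, the genes most correlated with each member (5 for Nampt, 2 for others) and from each list up to 4 genes by the rhythm difference and up to 2 by level. Alternatives were another pseudocount, no filter, median-of-ratios rescaling, the deposited values, limma-voom, a replicate block, a stricter threshold and leaving out replicate numbers, times and single libraries. Leaving out 3 libraries together was added after seeing the data.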

Additional observations from a re-analysis of the deposited data

Results flagged for a closer look

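The rhythm of 3 members differed between the regimens by a test of the difference itself (limma, adjusted over all genes), namely Nampt (adjusted p = 5.03e-05), Sirt1 (2.50e-04) and Nmnat3 (0.00960). The peaks of Nampt and Sirt1 came later under DRF and that of Nmnat3 earlier.

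In 6 of 112 groups of 4 libraries 1 library stood apart from the others, where chance alone gives about 1 in 20. Nmnat3 was at 9.21 TPM in DRF ZT4 replicate 1, with the others at 8 to 8.04, and at 8.89 TPM in DRF ZT12 replicate 3, with the others at 8.06 to 8.12. Nmrk1 was at 4.30 TPM in NRF ZT8 replicate 4, with the others at 3.18 to 3.36. Sirt3 was at 11.5 TPM in NRF ZT20 replicate 4, below the others at 12.9 to 13.2. Nnt was at 1.07 TPM in DRF ZT0 replicate 1, with the others at 0.639 to 0.711, and at 0.561 TPM in NRF ZT20 replicate 2, with the others at 0.345 to 0.374.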

How the results depend on the processing

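Of 6689 member results under an alternative, 6532 stayed on their side of the threshold, 82 newly passed it and 75 no longer did. The sign changed in 145. Of these, 8 were called in the reported fit, all of them shifts in feeding time of Nmnat1 and Parp1, which measured at least 9.07 h, and the sign of a shift turns over at 12 h. Of the members called for a difference in mean level (1), there were 2 without the filter and with deposited values, 3 after median-of-ratios rescaling and with limma-voom, 0 without ZT0, ZT20 or ZT24 and at an adjusted p under 0.01, 2 without ZT4, ZT8 or ZT16, 4 without ZT12 and 0 to 2 without single replicates. Against Nampt (5), 3 to 6 were called without single replicates. At ZT0 (2) there was 1 without the filter or with deposited values, 3 after rescaling or with limma-voom, 0 at 0.01, and 0 to 3 without single replicates. At ZT12 (2) there was 1 without the filter, with deposited values or without ZT16, ZT20 or ZT24, 0 after rescaling, with limma-voom or at 0.01, and 0 to 2 without single replicates. At ZT20 (1) there were 0 without the filter, without ZT12 or at 0.01, 2 after rescaling, with deposited values, limma-voom or without ZT16 or ZT24, 3 without ZT0, and 0 to 2 without single replicates. At ZT24 (1) there were 2 with a pseudocount of 0.1 or without ZT4, 3 after rescaling or with limma-voom, and 0 to 2 without single replicates. The calls over all genes moved as well, from 4020 to between 2012 and 4900 for mean level, from 11680 to between 8250 and 19404 against Nampt, from 1593 to between 604 and 2015 at ZT0, from 1062 to between 84 and 1932 at ZT12, from 2062 to between 734 and 2636 at ZT20 and from 1227 to between 198 and 2186 at ZT24. The causes were not tested. The member counts of rhythm and of its difference stayed within 1 of the values reported. Over all genes, the rhythm calls moved from 5166 to between 2812 and 6644 under NRF and from 4478 to between 2296 and 4891 under DRF. Calls of a difference in rhythm moved from 3825 to between 1843 and 4677. The difference in rhythm of Nmnat1 was called after rescaling (0.0415) and with limma-voom (0.0453), with shifts of -2.71 and -2.93 h against 1.4 h as reported, and the DRF rhythm of Parp1 was lost with deposited values (0.0663).

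Without the 3 libraries in which clock genes stood apart, an alternative chosen after seeing the data, the members called moved from 1 to 2 at ZT24, where Sirt1 was added (0.0394), and, with Sirt3 added, from 5 to 6 for the rhythm under NRF and from 3 to 4 for its difference. The calls over all genes moved from 1227 to 1474, from 5166 to 5948 and from 3825 to 4302. They moved further at ZT4 (62 to 473), ZT8 (49 to 504) and ZT16 (955 to 1478).

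With the replicate block, 3 members were called at ZT20 in place of 1 and Sirt1 differed from Nampt (adjusted p = 0.0329). Same-numbered libraries correlated between -0.395 and 0.569 (median 0.0127), with 92 of 364 pairs over 0.1. With 4 numbers to choose from, 21 of 56 libraries were closest to their own number. The reported fits did not pair libraries by number, and a batch shared by number was not tested. Counting error limits Nmrk1 and Nnt most.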
